A study of Homo sapiens with 9 samples.

Results

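The genes described here encode subunits of the transcription factor NF-kB (NFKB1, NFKB2, RELA and RELB) and classical NF-kB targets (NFKBIA, TNFAIP3, BIRC3, ICAM1, SOD2 and PTGS2). They were chosen by name, and a probe set counted as theirs when the platform annotation gave it exactly 1 gene. Of the 10 genes 9 had such a probe set, out of 19775 genes in all, and together they had 17 of the 54675 probe sets. BIRC3 was paired with none in the annotation used here and has no value below. SOD2 had 1 probe set of its own, because 4 others are annotated to SOD2 and SOD2-OT1 together and were not used. The 9 Affymetrix arrays carried RNA of A549, an established line from a human lung adenocarcinoma, kept in medium with serum and otherwise untreated. The si-Ctrl group holds 3 arrays of cells with a control oligo, the si-Med23 group 3 arrays of cells with the RNA interference oligos A, B and C against MED23, and the si-Elk1 group 3 arrays of cells with the oligos A, B and C against ELK1. MED23 belongs to the tail of Mediator, through which transcription factors reach RNA polymerase II. ELK1, of the ETS family of factors, is phosphorylated by ERK. Each knockdown replicate is a different oligo, and the design text calls them different cell lines, so oligo differences are part of their spread. The labels do not say whether the control arrays came from separate cultures, so the p-values measure the spread of these samples alone, which may be technical.

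NF-kB is a family of dimers built from Rel proteins. In resting cells the dimers are held in the cytoplasm by inhibitors such as IkB-alpha, the product of NFKBIA, and signals from TNF or interleukin-1 receptors activate a kinase complex, IKK, that marks the inhibitor for destruction. RELA carries a transactivation domain and pairs mostly with p50, the processed product of NFKB1, whereas RELB pairs with p52, the processed product of NFKB2, in a slower branch of the pathway. Among the targets, NFKBIA and TNFAIP3 shut the signal off again, so that they serve as feedback genes. ICAM1 encodes an adhesion molecule for leukocytes, SOD2 the manganese superoxide dismutase of mitochondria, and PTGS2 the inducible cyclooxygenase. In airway epithelium these genes are known for their response to inflammatory cytokines.

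NF-kB dimers bind a short element, the kappaB consensus. The stretches that hold it are shown because they set members with the same element near the start beside each other. Of the members shown, NFKBIA and TNFAIP3 rose in si-Med23, NFKB2 fell on its main probe set only, and NFKB1 did not pass. RefSeq promoter windows of GRCh38.p14, each 250 bases before to 50 after a start, were matched for 9 of the 10 genes, all but RELB, and numbered 16. The consensus, of 10 bases, was found on either strand in 6 of these windows (37.5%) and in 11.3% of the 35116 windows of all genes. The windows with a match belong to 5 genes, NFKB1, NFKB2, NFKBIA, TNFAIP3 and BIRC3. Those of RELA, ICAM1, SOD2 and PTGS2 held no match, and sites outside the windows were not searched. The matches of BIRC3 are not shown, since it has no value here to set beside them, and of 5 upstream matches in the windows of NFKB2 1 is shown for each start. A match is a description of the letters, not a sign that the factor was bound in these cells. The stretches below lie upstream of the start, are written 5′ to 3′ on the strand of the gene, and carry the consensus match in capitals. The matches of NFKBIA and TNFAIP3 read on the opposite strand.
NFKB1, chr4:102501295-102501334, plus strand: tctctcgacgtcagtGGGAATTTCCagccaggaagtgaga
NFKB2, chr10:102394456-102394495, plus strand: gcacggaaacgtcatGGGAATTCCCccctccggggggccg
NFKB2, chr10:102395669-102395704, plus strand: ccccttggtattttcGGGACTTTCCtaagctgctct
NFKBIA, chr14:35404806-35404845, minus strand: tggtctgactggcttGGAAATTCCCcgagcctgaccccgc
TNFAIP3, chr6:137867177-137867216, plus strand: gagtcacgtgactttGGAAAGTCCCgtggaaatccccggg
TNFAIP3, chr6:137867189-137867228, plus strand: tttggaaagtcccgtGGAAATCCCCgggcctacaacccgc
The match of NFKB1 begins 49 bases before the start and that of NFKBIA 81 bases before it. In NFKB2 the first match shown begins 107 bases before its start and the other, upstream of another start, 21 bases before it. The matches of TNFAIP3 begin 67 and 55 bases before the start and do not overlap each other.

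Signals were analysed as log2(signal + 1), and each gene was tested on its main probe set, the brightest of those annotated to it alone. Genes whose main probe set averaged less than log2 6.05, a signal of 65.4, were left out, and all 9 measured members were among the 12616 genes that stayed in. The number of arrays limits the precision. Array medians did not overlap between the groups. They lay between 64.7 and 68.8 in si-Med23, 76.9 and 79.9 in si-Ctrl, and 84.0 and 88.0 in si-Elk1. The oligos lowered their targets, with log2 fold changes of -2.46 ± 0.27 (SE, n = 3 arrays per group) for MED23 in si-Med23 and -2.07 ± 0.26 for ELK1 in si-Elk1 (limma adjusted p = 0.00184 and 0.00684). The array's spiked controls differed between the groups. The 24 poly-A spike probe sets were higher in si-Med23 than in si-Ctrl by a mean log2 difference of 1.61 and in si-Elk1 by 0.64, and the 18 hybridization controls by 0.50 and 0.18. Each of these differences had an exact permutation p = 0.1 (two-sided), and groups of 3 and 3 allow none smaller. Directions are therefore relative to each array's trimmed mean. Where the main value of a gene was followed through the other scalings, each direction that turned is named. Other probe sets and other genes were not followed. Against si-Ctrl, poly-A spike scaling shifts log2 fold changes by -1.61 in si-Med23 and -0.64 in si-Elk1. Hybridization control scaling shifts them by -0.50 and -0.18. A rise smaller than such a shift turns there, also where it is not named. All 7 epithelial and A549 markers were above the filter level, and their mean signal lay between log2 13.93 and 14.09 in si-Ctrl, 14.25 and 14.66 in si-Med23 and 14.11 and 14.35 in si-Elk1. Of the markers of other cells, 0 of 6 fibroblast genes, 1 of 4 endothelial genes (PECAM1) and 2 of 4 blood genes (CD3E and ITGAM) averaged above that level. PTPRC, the pan-leukocyte marker, reached at most 4.87 and VWF at most 4.79, and COL3A1, CDH5 and TEK stayed under the level on every array too. Other genes that averaged under it passed it on some array. The highest values were 7.57 for DCN, 6.84 for LUM, 6.68 for PDGFRB, 6.64 for PDGFRA, 6.53 for COL1A2 and 6.14 for LYZ. Mean signals of the 3 lists ran from 4.33 to 6.26 in si-Med23 and from 5.28 to 6.85 in si-Ctrl, and from 5.51 to 7.10 in si-Elk1. The part of any of this in the results below was not tested, and fewer cells of a type and less RNA per cell cannot be told apart in such samples.

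With MED23 reduced, 4 of the 5 measured targets rose. SOD2, ICAM1, TNFAIP3 and NFKBIA rose, SOD2 by 4.50-fold and ICAM1 by 6.47-fold, and RELA rose by 1.37-fold. NFKB2 fell, to 75.5% of the control level, and NFKB1, RELB and PTGS2 did not pass. That is 5 members higher and 1 lower of 9, in a comparison in which 39.8% of all tested genes passed, 20.3% higher and 19.5% lower. The median log2 fold change was 0.45 over the 9 members and 0.09 over all genes tested. For 8 of the 9 members the values of si-Med23 and si-Ctrl did not overlap, which held for 57.3% of all genes. At an unadjusted limma p under 0.05 the members numbered 6, and 50.3% of all genes passed that mark. With ELK1 reduced, none of the 9 members passed. Every adjusted p here is from limma, adjusted by Benjamini-Hochberg over the 12616 genes.

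**Figure D1:**
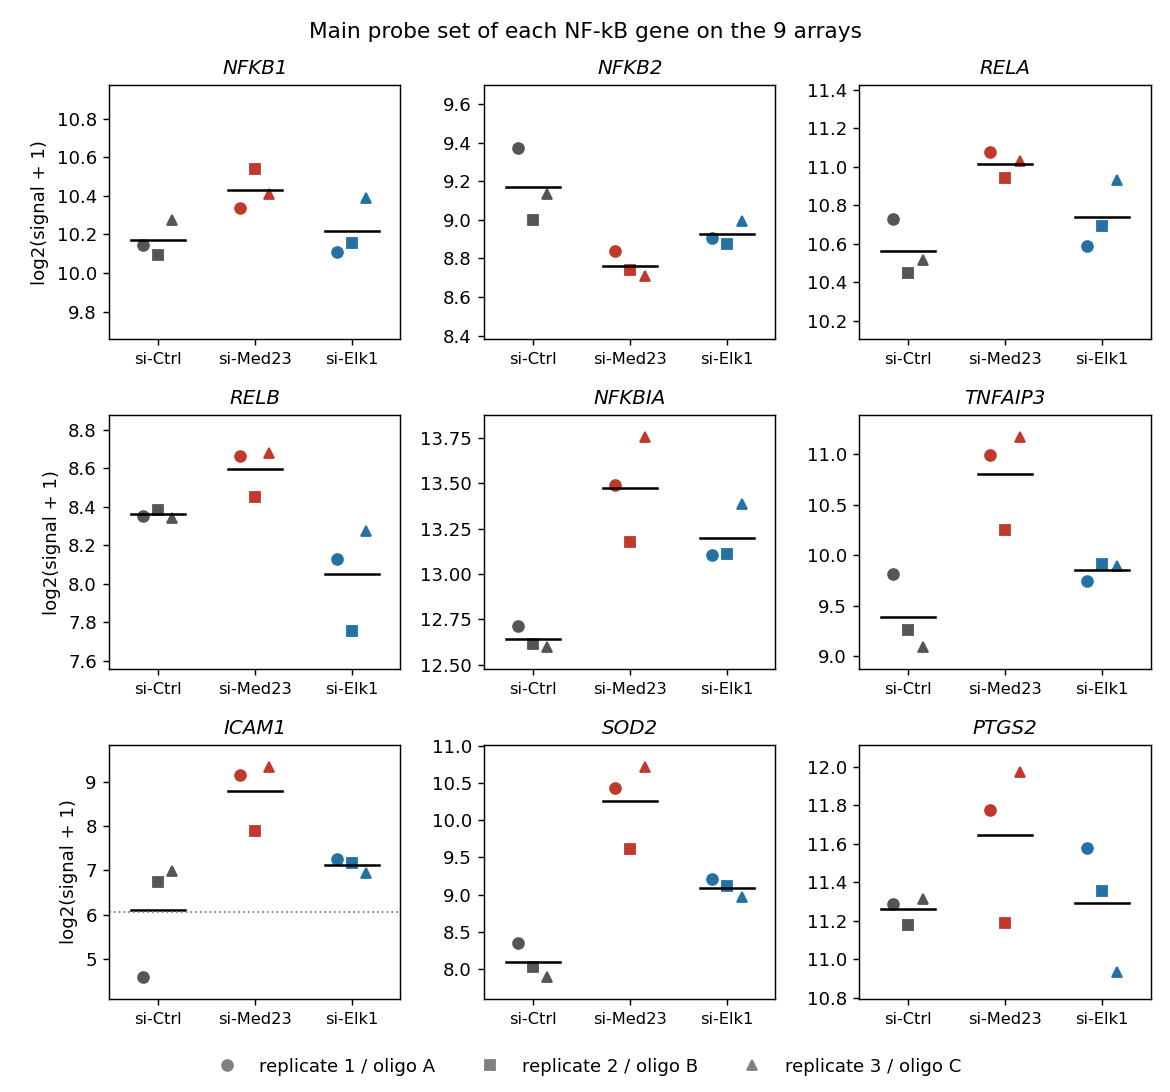
Log2(signal + 1) of the main probe set of each of the 9 genes on each array. Points are single arrays, with circles, squares and triangles for replicates 1, 2 and 3 (oligos A, B and C in the knockdowns), black bars are group means, and the dotted line in the ICAM1 panel is the filter level of 6.05. In SOD2 the si-Med23 arrays lie above the si-Elk1 arrays and these above the control arrays, while in PTGS2 the groups overlap.

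Of the subunit genes, RELA passed upwards and NFKB2 downwards. RELA, which encodes the p65 subunit, read 10.73, 10.45 and 10.51 on the si-Ctrl arrays, against 11.08, 10.94 and 11.03 on those of the oligos A, B and C for MED23. All 3 si-Med23 values lay above all control values, within a narrow range. The log2 fold change was 0.45 ± 0.13 (SE, n = 3 arrays per group; adjusted p = 0.0264). RELA did not pass when si-Ctrl replicate 2 or 3, or else oligo A or C of si-Med23, was left out (adjusted p = 0.0884, 0.0850, 0.0712 and 0.0615). Its direction turned under poly-A spike scaling and hybridization control scaling (-1.16 and -0.045), and with the mean of its probe sets the rise was 0.91 (adjusted p = 0.00484).

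NFKB2, the gene of the p100 precursor and its product p52, was the member that fell. Its main probe set read 9.37, 9.00 and 9.13 in si-Ctrl and 8.84, 8.74 and 8.71 in si-Med23. The lowest control array stood above the highest si-Med23 array by less than the control arrays differed among themselves. The log2 fold change was -0.41 ± 0.12 (adjusted p = 0.0315), and it stayed negative under each of the 4 other scalings, but did not pass after median centring (-0.17, adjusted p = 0.292) or quantile normalization (-0.29, 0.112). It no longer passed when si-Ctrl replicate 1 or 3 or any si-Med23 oligo was left out, with adjusted p of 0.115 and 0.0758 for the controls and of 0.0504, 0.0772 and 0.0775 for oligos A, B and C. A different probe set of NFKB2 had the opposite sign, as given with the other probe sets below.

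NFKB1, the gene of the p105 precursor and p50, read 10.15, 10.09 and 10.27 in si-Ctrl and 10.34, 10.54 and 10.41 in si-Med23. The groups did not overlap, but the log2 fold change of 0.26 ± 0.12 did not pass (adjusted p = 0.124). Its 95% interval ran from -0.02 to 0.54. RELB was as close, with 8.35, 8.38 and 8.34 in si-Ctrl against 8.66, 8.45 and 8.68 in si-Med23. The control arrays of RELB agreed to within 0.05, and the log2 fold change was 0.24 ± 0.15 (adjusted p = 0.233, 95% interval -0.10 to 0.58). Both turned negative under poly-A spike scaling (-1.35 and -1.37) and hybridization control scaling (-0.24 and -0.26), and both passed under median centring (adjusted p = 0.0125 and 0.0240).

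The feedback genes rose. NFKBIA read 12.72, 12.62 and 12.60 in si-Ctrl, against 13.49, 13.18 and 13.76 on the 3 si-Med23 arrays. Every si-Med23 array was above every control array. The log2 fold change was 0.83 ± 0.16 (adjusted p = 0.00603), or 1.78-fold. TNFAIP3, which encodes the ubiquitin-editing enzyme A20, read 9.82, 9.26 and 9.09 in si-Ctrl and 10.99, 10.25 and 11.17 in si-Med23. Again the groups did not overlap, although the value with oligo B stood closer to the highest control array than to the other oligos. TNFAIP3 rose by 1.42 ± 0.26 on the log2 scale (adjusted p = 0.00517), or 2.67-fold. Under poly-A spike scaling NFKBIA had a log2 fold change of -0.78 and TNFAIP3 of -0.19. NFKBIA also did not pass under hybridization control scaling (0.33, adjusted p = 0.144) or where probe sets ending in _s_at or _x_at were left out (0.90, 0.0549).

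SOD2 and ICAM1 had the highest fitted log2 fold changes of the 9 members. The SOD2 probe set read 8.35, 8.02 and 7.89 in si-Ctrl and 10.44, 9.62 and 10.72 in si-Med23. The gap between the groups was wider than the range of either. SOD2 rose by 2.17 ± 0.27 on the log2 scale (adjusted p = 0.00202). ICAM1 read 4.58, 6.75 and 6.98 in si-Ctrl and 9.16, 7.90 and 9.34 in si-Med23. The control array of replicate 1 lay below the filter level and far from the other two, so the size of the ICAM1 rise is uncertain. The fitted log2 fold change was 2.69 ± 0.61 (adjusted p = 0.0104), it was 2.20 with signals raised to the filter level, and it was 1.93 without si-Ctrl replicate 1. NFKBIA, TNFAIP3, SOD2 and ICAM1 kept their calls when any single array was left out. SOD2 and ICAM1 stayed positive under every scaling tried, but neither passed under poly-A spike scaling (0.56 and 1.08, adjusted p = 0.130 and 0.0798).

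PTGS2 read 11.29, 11.18 and 11.31 in si-Ctrl and 11.78, 11.19 and 11.97 in si-Med23. Oligos A and C were above all controls, and oligo B lay among them. The log2 fold change of 0.39 ± 0.23 did not pass (adjusted p = 0.203), and its 95% interval was -0.13 to 0.90. Its sign turned under poly-A spike and hybridization control scaling (-1.22 and -0.11), and it passed as higher after median centring (0.62, adjusted p = 0.0494).

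**Figure D2:**
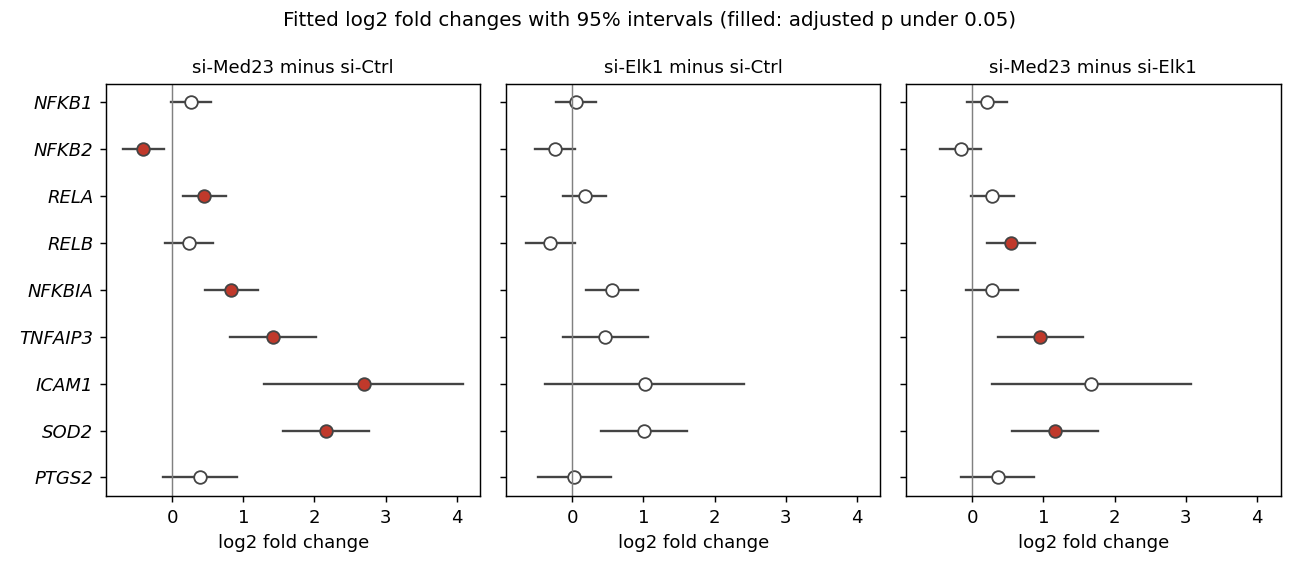
Fitted log2 fold changes of the 9 genes in the 3 comparisons, with bars for the 95% interval of limma's fit and filled points for an adjusted p under 0.05. In si-Med23 minus si-Ctrl 6 points are filled, from -0.41 for NFKB2 to 2.69 for ICAM1, in si-Elk1 minus si-Ctrl 0 are filled and in si-Med23 minus si-Elk1 3 are.

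The arrays of the oligos against MED23 differed in how high the targets stood. Each oligo has a single array, so the oligo cannot be told apart from its array or culture. On the main probe sets oligo B gave the lowest of the 3 si-Med23 values in 5 of the 5 measured targets, NFKBIA, TNFAIP3, ICAM1, SOD2 and PTGS2. The other probe sets of TNFAIP3, ICAM1 and PTGS2 were lowest with oligo B as well. That of NFKBIA, 231699_at, was lowest with oligo A (0.58 above the control mean, against 0.94 with B and 1.19 with C). Over all 12616 genes oligo B was lowest in 33.6%, and over the 2561 genes that rose it was lowest in 29.9%. This order was noticed in the values and is given without a test. Targets read on the same array are not independent of each other. Relative to the control mean, SOD2 was higher by a log2 difference of 2.35 with oligo A, 1.53 with oligo B and 2.63 with oligo C. For TNFAIP3 the differences were 1.61, 0.86 and 1.78, and for ICAM1 3.05, 1.79 and 3.24. PTGS2 showed 0.52, -0.071 and 0.71. Among the subunits NFKB1 had its highest value with oligo B (0.37, against 0.17 with A and 0.24 with C), while RELA and RELB had their lowest there and NFKB2 had its lowest with oligo C. These orders too are of the main probe sets. The RELA probe set 209878_s_at was highest with oligo B (1.65, against 0.95 with A and 1.50 with C). The NFKB2 probe set 209636_at was lowest with oligo B (-0.18, against 0.69 with A and 0.21 with C). The MED23 transcript itself stood at 6.79 with oligo A, 6.19 with oligo B and 7.06 with oligo C.

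**Figure D3:**
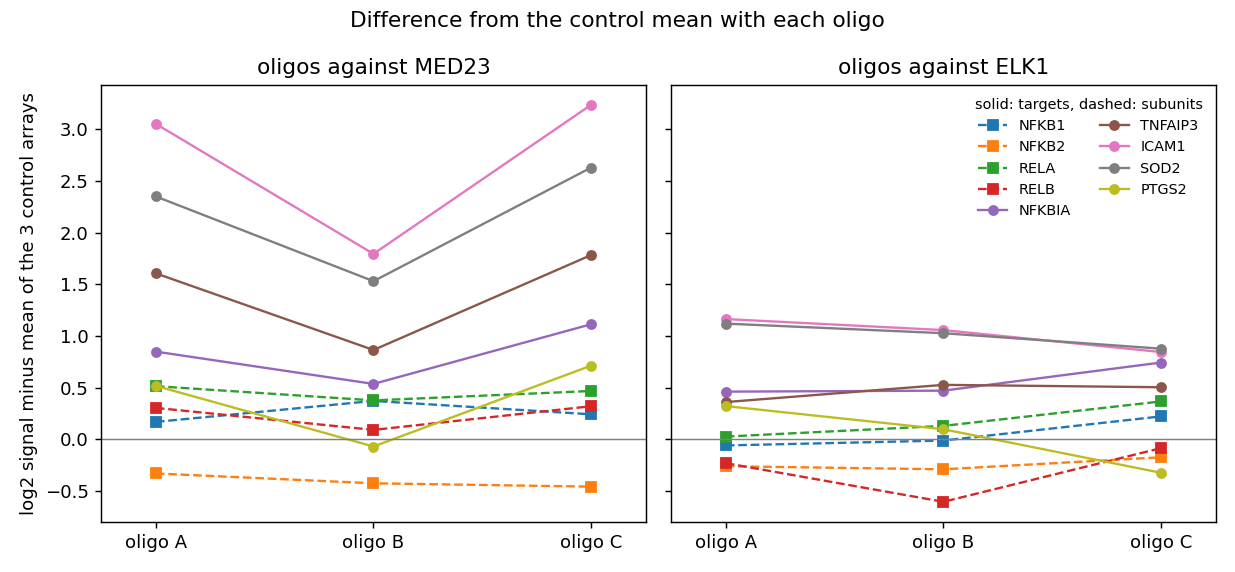
Log2 signal with each oligo minus the mean of the 3 control arrays, for the main probe set of each gene, with solid lines for targets and dashed lines for subunits. Lines only join the values of a gene, since the oligos have no order. With the oligos against MED23 the 5 solid lines dip at oligo B, where SOD2 stands at 1.53, and with those against ELK1 ICAM1 and SOD2 stand between 0.84 and 1.16.

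The comparison of si-Elk1 with si-Ctrl asked how the same genes stood with ELK1 reduced. It uses the same control arrays as the comparison above, so the results of these comparisons are not independent. None of the 9 members passed, and 4.26% of all tested genes did, 3.07% higher and 1.19% lower. An unadjusted limma p under 0.05 was reached by 2 members and by 25.1% of all genes. For 4 of the 9 members the groups did not overlap (NFKBIA and SOD2 higher, NFKB2 and RELB lower), against 36.3% of all genes. The median log2 fold change was 0.17 over the members and 0.05 over all genes.

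SOD2 was nearest to a call. It read 9.21, 9.11 and 8.96 with the si-Elk1 oligos A, B and C, each above the highest control value of 8.35. The oligos differed by little from each other. The log2 fold change was 1.01 ± 0.27 (adjusted p = 0.0667), and it passed without si-Med23 oligo B (adjusted p = 0.0232), an array that enters only through the shared estimate of the spread. Among the other alternatives it passed with a stricter filter, a fit of the 6 arrays alone, array weights, a trended and robust prior, and signals raised to the filter level (adjusted p = 0.0314, 0.0312, 0.0193, 0.0259 and 0.0490). NFKBIA read 13.10, 13.11 and 13.39, all above the controls, with a log2 fold change of 0.56 ± 0.16 (adjusted p = 0.0836). It passed with the stricter filter, array weights and the trended and robust prior (0.0470, 0.0361 and 0.0235), and its sign turned under poly-A spike scaling (-0.081). The other NFKBIA probe set, 231699_at, gave 0.04 ± 0.36 in the limma fit of all probe sets below (adjusted p = 0.974). It lay under the filter level on 4 of the 9 arrays.

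The other targets stayed within reach of the controls. ICAM1 read 7.27, 7.16 and 6.95, with a log2 fold change of 1.02 ± 0.61 (adjusted p = 0.321). Without si-Ctrl replicate 1 that value was 0.26, so on this probe set it rests mostly on the low control array. The ICAM1 probe set 202638_s_at read 5.97, 5.99 and 6.09 in si-Ctrl and 7.17, 6.09 and 7.10 in si-Elk1. Its log2 fold change in the limma fit of all probe sets below was 0.77 ± 0.46 (adjusted p = 0.555). There 215485_s_at gave 0.20 ± 0.64 (0.930). TNFAIP3 read 9.75, 9.92 and 9.89, and its highest control array of 9.82 fell among them (0.46 ± 0.26, adjusted p = 0.296). PTGS2 read 11.58, 11.36 and 10.93, a spread wider than that of the controls, with a log2 fold change of 0.03 ± 0.23 (adjusted p = 0.944) and a 95% interval of -0.49 to 0.55.

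Of the subunits in si-Elk1, RELB read 8.13, 7.75 and 8.27, each below the lowest control value of 8.34. Its log2 fold change was -0.31 ± 0.15 (adjusted p = 0.238), negative under every scaling tried. NFKB2 read 8.91, 8.88 and 8.99, with a log2 fold change of -0.24 ± 0.12 (adjusted p = 0.260). NFKB1 and RELA overlapped the controls, with log2 fold changes of 0.05 and 0.17 (adjusted p = 0.827 and 0.429), and both turned negative under poly-A spike and hybridization control scaling (-0.59 and -0.13 for NFKB1, -0.47 and -0.0084 for RELA).

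The difference between the knockdowns was tested directly, in a contrast where the controls cancel. SOD2, TNFAIP3 and RELB were higher in si-Med23 than in si-Elk1, 3 of the 9 members, and 0 were lower. Under poly-A spike scaling 0 were higher and 4 lower, NFKB1, NFKB2, RELA and NFKBIA. In this comparison 21.7% of all tested genes passed, with 9.54% of all tested genes higher in si-Med23 and 12.2% lower. For 6 of the 9 members the groups did not overlap, against 38.0% of all genes, and 4 members and 39.7% of all genes had an unadjusted p under 0.05. SOD2 differed by 1.16 ± 0.27 on the log2 scale (adjusted p = 0.0206), TNFAIP3 by 0.95 ± 0.26 (adjusted p = 0.0360) and RELB by 0.55 ± 0.15 (adjusted p = 0.0361). RELB is the member with opposite signs in the knockdowns, 0.24 in si-Med23 and -0.31 in si-Elk1 against the controls, neither of which passed alone.

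The count of 3 fell to 0 without si-Med23 oligo A or si-Elk1 oligo A or B, and to 1 without si-Ctrl replicate 2 or oligo C of si-Med23. RELB lost its call without any array other than si-Elk1 oligo C (adjusted p from 0.0555 to 0.102). TNFAIP3 did not pass without si-Ctrl replicate 2, oligo A or C of si-Med23, or si-Elk1 oligo A or B (0.0532 to 0.108), and SOD2 without si-Med23 oligo A or si-Elk1 oligo A or B (0.0588 to 0.0645). RELB and TNFAIP3 turned negative under poly-A spike scaling (-0.43 and -0.017), where SOD2 was 0.19. ICAM1 had the highest fitted difference, 1.67 ± 0.61, and did not pass (adjusted p = 0.0807), though it did in 6 alternatives, among them a fit of the 6 arrays alone (0.0428) and signals raised to the filter level (0.0141), and without si-Ctrl replicate 1 (0.0247). NFKBIA differed by 0.27 ± 0.16 (adjusted p = 0.240, 95% interval -0.10 to 0.64), PTGS2 by 0.36 ± 0.23 (0.275), RELA by 0.28 ± 0.13 (0.154), NFKB1 by 0.21 ± 0.12 (0.238) and NFKB2 by -0.16 ± 0.12 (0.357). RELA passed as higher in 4 alternatives. These were averaging probe sets (0.72, adjusted p = 0.0214), median centring (0.65, 0.00663), array weights (0.0441) and leaving out si-Elk1 oligo C (0.0456). After median centring NFKB1, NFKBIA and PTGS2 passed as higher too (0.00781, 0.0122 and 0.0331).

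The other probe sets of a gene give a check on its main one. In a limma fit over all 54613 probe sets that are not controls, with no filter, 5 of the 17 member probe sets were called in si-Med23 against si-Ctrl, 5 of them higher, where 7.89% of all probe sets were. The 5 became 0 without any si-Ctrl array or si-Med23 oligo A, 1 without si-Med23 oligo B or C and 3 without si-Elk1 oligo A or B. Of the 17, 15 had a log2 fold change above 0. The call count was 0 of 17 in si-Elk1 against si-Ctrl, with 2 at an unadjusted p under 0.05 and 0.0787% of all probe sets called. It was 0 of 17 in si-Med23 against si-Elk1, with 8 at an unadjusted p under 0.05 and 0.419% of all called. Probe sets of a gene can report different transcript ends or splice forms, and here their signals are set against their own controls only.

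The probe sets of RELA differed in size. The probe set 209878_s_at read 8.61, 8.04 and 8.63 in si-Ctrl, against 9.38, 10.08 and 9.92 in si-Med23. It did not overlap between the groups, and its log2 fold change of 1.37 ± 0.25 (adjusted p = 0.0288) compares with 0.45 ± 0.17 for the main probe set in the same fit (adjusted p = 0.147). In si-Elk1 it read 8.55, 8.61 and 8.74, within the range of the controls or just above it, and its difference between the knockdowns was 1.16 ± 0.25 (adjusted p = 0.0731).

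The probe sets of NFKB2 differed in sign. The probe set 209636_at had a log2 fold change of 0.24 ± 0.31 in si-Med23 (adjusted p = 0.674) and one of 0.19 in si-Elk1, against -0.41 and -0.24 for the main probe set, and 211524_at was below the filter level on 9 of the 9 arrays. The fall of NFKB2 therefore rests on its main probe set, which did not pass in the fit of all probe sets (adjusted p = 0.170).

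For each target with several probe sets, these gave the same sign in si-Med23. ICAM1 was called in si-Med23 with 202638_s_at, which read 5.97, 5.99 and 6.09 in si-Ctrl and 9.28, 7.55 and 8.49 in si-Med23. The control arrays of this probe set agreed closely, unlike those of the main one, which missed the threshold in this fit (adjusted p = 0.0504). Its log2 fold change was 2.42 ± 0.46 (adjusted p = 0.0302), and 215485_s_at gave 1.00 ± 0.64 (0.369). TNFAIP3 gave 1.42 and 1.18 with its probe sets 202644_s_at and 202643_s_at (adjusted p = 0.0357 and 0.0618), NFKBIA 0.83 and 0.90 with 201502_s_at and 231699_at (0.0477 and 0.158), and PTGS2 0.39 and 0.45 with 204748_at and 1554997_a_at (0.396 and 0.402). SOD2 passed in this fit too (2.17 ± 0.30, adjusted p = 0.0230), but on the same probe set, its only one here, so this is no separate check.

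**Figure D4:**
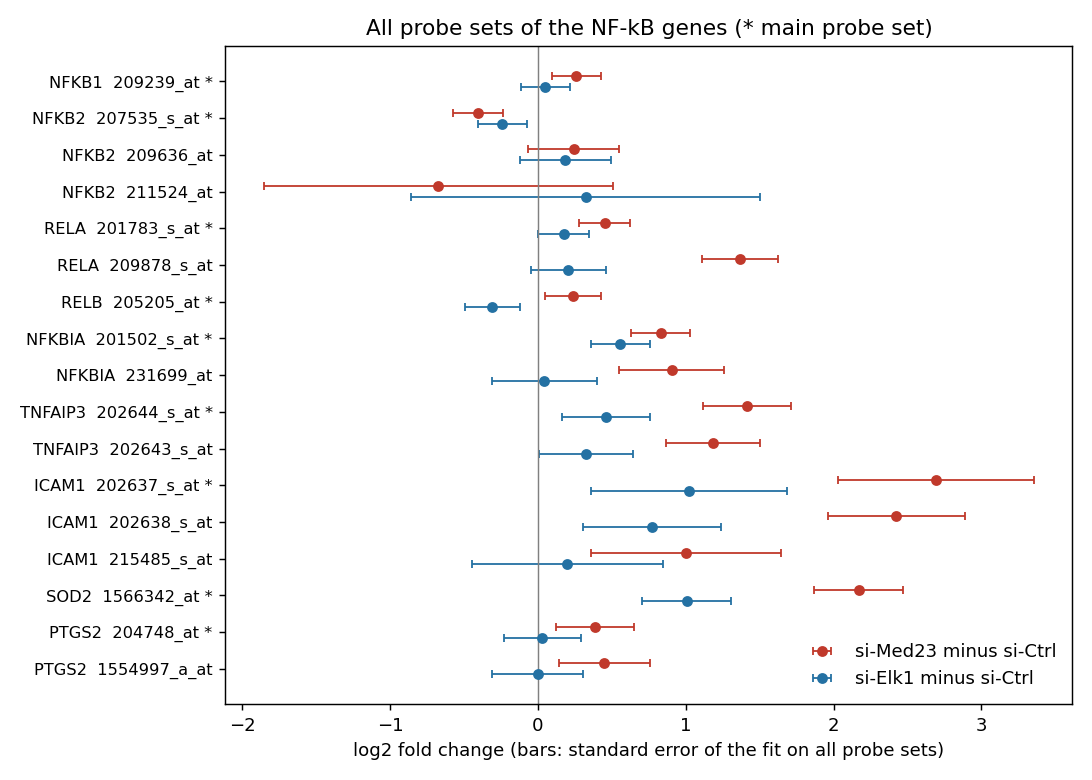
Log2 fold changes of all 17 probe sets of the 9 genes against si-Ctrl, in red for si-Med23 and in blue for si-Elk1, with bars for the standard error and a star for the main probe set. The probe sets of RELA stand at 0.45 and 1.37 in si-Med23, and those of NFKB2 lie on both sides of 0.

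The rest of the pathway was described by lists fixed with earlier results of these data known. Of 22 receptor and adaptor genes tested, 6 rose and 2 fell in si-Med23, where 20.3% of all genes rose and 19.5% fell. The median log2 fold change was 0.09 over the list and 0.09 over all genes, so neither the count nor the median sets the list apart. The split was 2 higher and 8 lower under hybridization control scaling and 0 and 21 under poly-A spike scaling. The TNF receptor gene TNFRSF1A rose by 1.06 ± 0.14 (adjusted p = 0.00208), IRAK2, a kinase of interleukin-1 receptor signalling, by 1.10 ± 0.17, and LTBR, the lymphotoxin beta receptor, by 0.64 ± 0.15. The death receptor gene TNFRSF10B (0.41 ± 0.11) and the kinase gene MAP3K8 (0.52 ± 0.15) rose as well. TAB3, an adaptor of the kinase TAK1, fell by 1.65 on the log2 scale. All 5 rises turned negative under poly-A spike scaling, and LTBR, TNFRSF10B and MAP3K8 did not pass under hybridization control scaling either. With a gene's probe sets averaged, IRAK2 (0.81, adjusted p = 0.0771), TAB3 (-0.53, 0.125), LTBR (0.24, 0.514), TNFRSF10B (0.072, 0.731) and MAP3K8 (0.14, 0.494) did not pass. TNFRSF10B did not pass when si-Ctrl replicate 3 or oligo B of si-Med23 was left out (adjusted p = 0.0767 and 0.0548), and MAP3K8 without any si-Ctrl array or si-Med23 oligo A or C (0.0523 to 0.0760). The count of 8 became 5, 5 and 4 without si-Ctrl replicates 1, 2 and 3, and 12 without si-Elk1 oligo C.

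The 13 genes of IKK, IkB and other Rel proteins went both ways in si-Med23, with 4 higher and 5 lower (median 0.09), against 20.3% higher and 19.5% lower over all genes. This split was 6 and 3 after median centring, 0 and 5 under hybridization control scaling and 0 and 13 under poly-A spike scaling. CHUK, which encodes the kinase IKK-alpha, fell by 1.53 ± 0.30 in log2 units (adjusted p = 0.00641), REL, the c-Rel subunit, by 1.51 ± 0.31 (0.00743) and TBK1, an IKK-related kinase, by 1.46 ± 0.35 (0.0120). NKRF, a repressor of NF-kB target genes, fell by 0.53 ± 0.11 (0.00818). These 4 stayed negative under every scaling tried, but NKRF did not pass after median centring (-0.30, adjusted p = 0.0759). NFKBIZ, an atypical nuclear IkB protein, rose by 0.74 ± 0.19 (0.0152) and IKBKE, another IKK-related kinase, by 0.60 ± 0.15 (0.0163), and both turned negative under poly-A spike scaling and did not pass under hybridization control scaling. IKBKE did not pass when si-Ctrl replicate 1 or 3 (0.0552 and 0.0630) or oligo C of si-Med23 (0.0504) was left out, nor did NFKBIZ when si-Ctrl replicate 3 was (0.0545). The count for the list was 5 without si-Ctrl replicate 3 and at least 6 without any other single array.

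Of 17 ubiquitin editors and feedback regulators, 1 rose and 5 fell in si-Med23 (median -0.25), where 20.3% of all genes rose and 19.5% fell. After median centring 6 were higher and 3 lower, and 0 were higher under hybridization control scaling (12 lower) and poly-A spike scaling (17 lower). TNIP1, a partner of A20, rose by 0.75 ± 0.14 (adjusted p = 0.00591), a sign that turned under poly-A spike scaling (-0.86). It did not pass under hybridization control scaling (0.25, adjusted p = 0.187) or with the mean of all probe sets (0.29, 0.699). BIRC2, a ubiquitin ligase of the TNF receptor complex, fell by 1.56 ± 0.37 on the log2 scale (0.0117), TAX1BP1, an adaptor of A20, by 1.07 ± 0.24 (0.00981) and XIAP, an inhibitor of apoptosis, by 1.00 ± 0.21 (0.00807). CUL1, the scaffold of the ligase that degrades IkB, fell by 0.60 ± 0.14 (0.00988), but had a log2 fold change of 0.37 where probe sets ending in _s_at or _x_at were left out. ITCH, a ligase that acts with A20, fell by 0.58 ± 0.14 (0.0126), a call lost without si-Ctrl replicate 3 (0.0515). After median centring neither ITCH (-0.34, adjusted p = 0.0795) nor CUL1 (-0.37, 0.0621) passed, and with its probe sets averaged CUL1 was -0.12 (0.707).

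Of 31 other classical targets, 18 rose and 2 fell in si-Med23, where 20.3% of all genes rose and 19.5% fell, with a median of 0.50 against 0.09 over all genes. The 2 that fell were IL1A (-1.51 ± 0.31, adjusted p = 0.00728) and MMP9 (-0.48 ± 0.17, 0.0496). IL1A lay under the filter level on 2 si-Med23 arrays. The split depends on the scaling, with 7 higher and 8 lower under hybridization control scaling and 0 higher and 22 lower under poly-A spike scaling. The chemokine genes CXCL8, CXCL1, CCL2 and CXCL2 rose by 2.07 ± 0.22, 1.92 ± 0.24, 1.84 ± 0.19 and 1.50 ± 0.23 on the log2 scale (adjusted p from 0.00184 to 0.00297). The cytokine gene IL6 rose by 2.10 ± 0.36 (0.00398) and LTB, which encodes lymphotoxin beta, by 1.41 ± 0.22 (0.00300). Of these 6 genes CXCL2 and LTB turned negative under poly-A spike scaling (-0.11 and -0.20). The other 4 did not pass there, with 0.23 for CCL2, 0.46 for CXCL8, 0.31 for CXCL1 and 0.49 for IL6 (adjusted p = 0.477, 0.145, 0.338 and 0.188). LTB had a control mean of 6.03, just under the filter level, and a log2 fold change of 0.21 (adjusted p = 0.767) where probe sets ending in _s_at or _x_at were left out. Without si-Ctrl replicate 3 the count of called targets was 13 in place of 20.

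In si-Elk1 the lists of receptors and adaptors, of IKK, IkB and Rel genes, and of ubiquitin editors held 0 called genes by limma, with 1, 3 and 3 at an unadjusted p under 0.05. Of the 31 other targets 4 rose and 1 fell, where 3.07% of all genes rose and 1.19% fell. CCL20, a chemokine, rose by 2.55 ± 0.53 on the log2 scale (adjusted p = 0.0384), LTB by 1.11 ± 0.22 (0.0330), GADD45B, a stress response gene, by 0.70 ± 0.15 (0.0381) and BCL2L1, which encodes the survival protein BCL-XL, by 0.60 ± 0.14 (0.0497). These 4 also rose in si-Med23, CCL20 by 2.19, LTB by 1.41, GADD45B by 0.44 and BCL2L1 by 0.47 (adjusted p = 0.0130, 0.00300, 0.0406 and 0.0264). Of those rises only that of CCL20 was larger than the poly-A spike shift of that comparison (-1.61). CCL20 and LTB each lay under the filter level on 1 si-Ctrl array. CCL2 fell by 0.88 ± 0.19 on the log2 scale (0.0403), where in si-Med23 it rose. These 5 calls depended on single arrays: without any si-Ctrl array 0 of the 5 passed, and leaving out si-Elk1 oligo A, B or C left at most 1 called gene in the list. The sign of BCL2L1 turned under poly-A spike scaling (-0.039), and LTB was -0.12 where probe sets ending in _s_at or _x_at were left out.

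Between the knockdowns, 11 of the 31 other targets were higher in si-Med23 and 0 lower, as were 5 and 0 of the 22 receptors and adaptors, where 9.54% of all genes were higher and 12.2% lower. Under poly-A spike scaling the directions reversed, to 2 higher and 16 lower among the other targets and 0 higher and 16 lower among the receptors and adaptors. Under hybridization control scaling they were 7 higher and 8 lower, and 2 higher and 4 lower. Of the IKK, IkB and Rel genes 1 was higher and 1 lower, and of the ubiquitin editors 1 was higher and 2 were lower. These counts rested on single arrays. The other targets numbered 5 without si-Elk1 oligo A or B, the receptors and adaptors 2 without either of these and 12 without si-Elk1 oligo C. The IKK, IkB and Rel genes numbered 1 without any si-Med23 array or si-Elk1 oligo A or B, and 6 without si-Elk1 oligo C, where the ubiquitin editors numbered 9. Those editors numbered 0 without si-Elk1 oligo A or B, 3 without si-Med23 oligo C and 1 without any other single array.

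**Figure D5:**
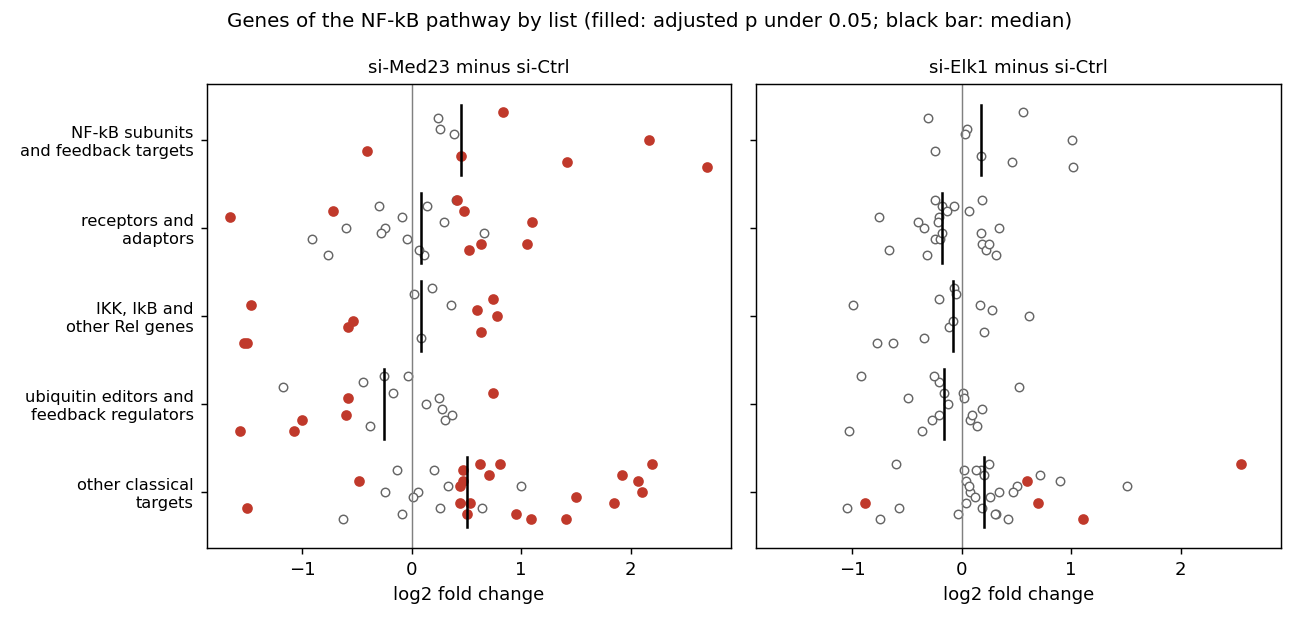
Log2 fold changes of the tested genes of each list against si-Ctrl, for si-Med23 on the left and si-Elk1 on the right, with filled points for an adjusted p under 0.05, a black bar for the list's median, and vertical scatter only to separate points. In si-Med23 the medians run from -0.25 for the ubiquitin editors to 0.50 for the other classical targets. In si-Elk1 5 points are filled, all among the other classical targets.

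For each member the tested gene with the most similar profile was found by Pearson correlation over the 9 arrays. This is a description to which differences between the groups and between single arrays both add. In PTGS2 the groups overlapped, so single arrays weigh more there. CXCL1 was the nearest gene to SOD2 (r = 0.99) and also to TNFAIP3 (r = 0.97), and its log2 fold change was 1.92 in si-Med23 against 0.72 in si-Elk1. Nearest to NFKBIA was IGF2R (0.99), which was 0.64 and 0.46 in the same comparisons. RELA was nearest to SUPT4H1 (0.98), NFKB1 to GALK1 (0.98), RELB to LARP1 (0.97), NFKB2 to GRSF1 (0.96), ICAM1 to RAP2B (0.96) and PTGS2 to CHRNA5 (0.92).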

How the data were processed

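As deposited, each value is an intensity, the linear signal of a probe set. The submitters' processing notes list RMA and MAS5 without saying what each was used for. The 2% trimmed mean is about 500.1 on each array, as MAS5 scaling leaves it, and this scaling removes any change in total messenger RNA. For the authors' genome build, the sources used here give none. Genes were assigned from the platform annotation, and 0 symbols changed against a RefSeq table of GRCh38.p14. Signals were tested as log2(signal + 1) by limma 3.58.1 under R 4.3.3 (two-sided moderated tests), fitting the 9 arrays together, with the brightest probe set of each gene, genes dimmer than the median probe set left out, no block, and Benjamini-Hochberg adjustment with a threshold of 0.05. The fit was tested on simulated data with 200 changed genes, far fewer than the 5023 called in si-Med23 against si-Ctrl. It recovered 20.9% of 1.5-fold changes, 52.9% of 2-fold changes and 90% of 4-fold changes there, and 5.34% of its calls were false. With so few changed genes the adjustment is stricter than in si-Med23, so these shares do not give the recovery there. A gene that did not pass can still have changed. The members, lists and tests were chosen with earlier results of these data known. Named genes are all members, up to 6 genes of each list with the smallest p in each knockdown, the gene with the most similar profile to each member, and the targeted genes. Of these, the genes of lists named for si-Elk1 are those that passed. IL1A and MMP9 are named beyond this rule, as the other targets that fell in si-Med23. Alternatives changed the filter, the probe set rule, the scaling, the arrays in the fit, the block, the weights, the prior, the pseudocount (16), and each array left out in turn. Replicate numbers did not pair the arrays, since the correlation of deviations between arrays with the same number ran from -0.18 to 0.05.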

Additional observations from a re-analysis of the deposited data

How the results depend on the processing

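Against si-Ctrl, the si-Med23 calls of NFKBIA, TNFAIP3, SOD2 and ICAM1 kept their direction and side of the threshold without any single array. Of the 23 alternatives tried (22 for ICAM1) TNFAIP3 differed from its main result in 1, SOD2 and ICAM1 in 1 each, NFKBIA in 3, RELA in 8 and NFKB2 in 12. With 3 arrays per group and dim signals uncertain, changes under about the spread of the arrays cannot be seen. The cause of each change below was not tested, except that fewer arrays or fewer genes enter some fits.

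Poly-A spike scaling turned most signs. In si-Med23 against si-Ctrl it gave NFKB1 -1.35, RELA -1.16, RELB -1.37, NFKBIA -0.78, TNFAIP3 -0.19, PTGS2 -1.22, TNFRSF1A -0.55, IRAK2 -0.51, LTBR -0.98, TNFRSF10B -1.20, MAP3K8 -1.09, NFKBIZ -0.87, IKBKE -1.01, TNIP1 -0.86, CXCL2 -0.11 and LTB -0.20. In si-Elk1 against si-Ctrl it gave NFKB1 -0.59, RELA -0.47, NFKBIA -0.081, TNFAIP3 -0.18, PTGS2 -0.61 and BCL2L1 -0.039, and between the knockdowns NFKB1 -0.76, RELA -0.69, RELB -0.43, NFKBIA -0.70, TNFAIP3 -0.017 and PTGS2 -0.62. Its shift of all log2 fold changes was -1.61, -0.64 and -0.97 in these comparisons. Hybridization control scaling, with shifts of -0.50, -0.18 and -0.32, gave NFKB1 -0.24, RELA -0.045, RELB -0.26, PTGS2 -0.11 and TNFRSF10B -0.085 in si-Med23, NFKB1 -0.13, RELA -0.0084 and PTGS2 -0.15 in si-Elk1, and NFKB1 -0.10, RELA -0.037 and NFKBIA -0.041 between the knockdowns. Median centring, with shifts of 0.23, -0.14 and 0.37, gave NFKB1 -0.086 and PTGS2 -0.10 in si-Elk1 and NFKB2 0.20 between the knockdowns. Without probe sets ending in _x_at or _s_at, si-Med23 gave NFKB2 0.24, MAP3K8 -0.24 and CUL1 0.37, si-Elk1 gave NFKB2 0.19 and LTB -0.12, and the knockdowns differed by 0.055 in NFKB2. In si-Elk1 NFKB2 was 0.090 by averaging probe sets and NFKB1 -0.019 with array weights. Without single arrays NFKB1 in si-Elk1 ran from -0.036 to 0.10 and PTGS2 from -0.11 to 0.21.

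Of the 9 members, 6 were called in si-Med23 against si-Ctrl, 4 to 6 without single arrays. Of the calls, 5 were higher and 1 lower, which became 8 and 0 by centring on medians, 3 and 1 on hybridization controls, and 0 and 6 on poly-A spikes. In si-Elk1 the count of 0 members became 2 with a stricter filter, array weights, or a trended and robust prior (2 higher each), 2 with poly-A spike scaling (2 lower), and 1 with the 6 arrays alone or signals raised to the filter level, and was 0 to 1 without single arrays. Between the knockdowns the count of 3 became 0 with no filter, 5 by averaging probe sets, 8 after median centring and 1 with the 6 arrays alone, and was 0 to 4 without single arrays. With poly-A spikes its 3 higher and 0 lower became 0 and 4, NFKB1, NFKB2, RELA and NFKBIA (adjusted p = 0.00896, 0.00188, 0.0185 and 0.0231). Of the member probe sets 5 were called in si-Med23, with 8 after median centring, 8 (all lower) with poly-A spikes, 3 with hybridization controls, 2 with the 6 arrays alone, 8 with the trended and robust prior, 10 with raised signals and 0 to 6 without single arrays. Between the knockdowns 0 became 5 after median centring, 3 with poly-A spikes, 4 with the trended and robust prior, 1 with a pseudocount of 16 and 5 with raised signals.

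In the lists, every call with poly-A spikes was lower, except 1 of the 8 other targets in si-Elk1 and 2 of their 18 between the knockdowns. With hybridization controls the list counts that changed by over 1.5 times were all lower, except 1 of 6 ubiquitin editors between the knockdowns, and after median centring those between the knockdowns were all higher. Receptor and adaptor calls in si-Med23 were 8 (6 higher, 2 lower), and 4 unfiltered, 5 by averaging probe sets and 21 with poly-A spikes (4 to 12 without single arrays). In si-Elk1 they were 0, and 9 with poly-A spikes, 2 with array weights and 1 with the trended and robust prior. Between the knockdowns they were 5, and 2 with no filter or the 6 arrays alone, 10 after median centring, 16 with poly-A spikes and 12 with array weights (2 to 12 without single arrays). IKK, IkB and Rel gene calls in si-Med23 were 9 (4 higher, 5 lower), and 5 with hybridization controls (5 to 10 without single arrays). In si-Elk1 they were 0, and 9 with poly-A spikes. Between the knockdowns they were 2, and 1 with no filter or the 6 arrays alone, 6 after median centring or with array weights, 10 with poly-A spikes, and 4 with hybridization controls or the trended and robust prior (1 to 6 without single arrays). Ubiquitin editor calls in si-Med23 were 6 (1 higher, 5 lower), and 17 with poly-A spikes and 12 with hybridization controls (5 to 8 without single arrays). In si-Elk1 they were 0, and 11 with poly-A spikes and 1 with the stricter filter, the mean of all probe sets, quantile normalization, median centring, hybridization controls, array weights, the trended prior or raised signals (0 to 1 without single arrays). Between the knockdowns they were 3, and 1 with no filter, the mean of all probe sets or the 6 arrays alone, 5 with the stricter filter, 8 after median centring, 15 with poly-A spikes, 6 with hybridization controls or the trended prior and 9 with array weights (0 to 9 without single arrays). Calls of other targets in si-Med23 were 20 (18 higher, 2 lower), with 7 higher and 8 lower on hybridization controls and 0 and 22 on poly-A spikes, and 13 to 20 without single arrays. In si-Elk1 they were 5, and 0 with no filter, 1 by averaging probe sets, 2 without _x_at and _s_at probe sets or with hybridization controls, 8 with poly-A spikes, 10 with array weights and 9 with the trended prior (0 to 5 without single arrays). Between the knockdowns they were 11, and 6 with no filter or the 6 arrays alone, 7 by averaging probe sets, 19 after median centring and 18 with poly-A spikes (5 to 12 without single arrays).

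The replicate number as a block is not supported by the data, since no pair of arrays with the same number had deviations that correlated above 0.05. With this replicate block the si-Med23 calls were 4 members, 0 member probe sets and 5 receptors and adaptors, and RELA (adjusted p = 0.0572) and NFKB2 (0.0595) lost their calls. In si-Elk1 the count of other targets became 0, and between the knockdowns the counts were 1 member, 2 receptors and adaptors, 1 gene of IKK, IkB and Rel and 7 other targets.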
